A study of Mus musculus with 15 samples.

Results

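The genes described here are 10 markers of spermatogonia and of the entry into meiosis, chosen by name as Zbtb16, Gfra1, Sall4, Dmrt1, Sohlh1, Sohlh2, Kit, Stra8, Meioc and Ythdc2. They are 10 of the 50051 features counted in strand-specific RNA-seq of mouse testis, and all 10 passed the filter on low counts, as did 20782 features in all. RNA-seq covered testes of 3 Chr18-/- homozygous knockout (Homo), 3 Chr18+/- heterozygous (Het) and 3 Chr18+/+ wild-type (WT) libraries at postnatal day 28. All mice were of the B6D2F1 strain, and the mutant allele affects a locus on chromosome 18 that makes pachytene piRNAs, small RNAs of meiotic and haploid male germ cells. Small RNA sequencing covered 3 homozygous and 3 heterozygous testis libraries and no wild-type ones. The labels do not say whether each library came from a separate animal, so the p-values cover only the variation among these libraries, which may be technical. Nor do they give the design of the allele, and whole testis was sequenced, so every value is a sum over all testis cell types.

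Spermatogonia are the mitotic germ cells of the testis, of which a small undifferentiated pool renews itself and supplies the rest. Retinoic acid and the receptor tyrosine kinase KIT drive their differentiation, and retinoic acid then induces STRA8, which with its partner MEIOSIN switches on genes of meiotic prophase. MEIOC and the RNA helicase YTHDC2 act after that on RNA, and germ cells without either fail early in meiosis.

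Counts per RNA-seq library ran between 21684791 and 41513634. The locus was checked first: its longer precursor had 4, 6 and 3 counts in homozygotes, against 8948, 3983 and 4422 in heterozygotes and 9595, 7283 and 5609 in wild type. WT library 1 and Het library 1 stood apart from the other libraries of their groups. A chi-square per degree of freedom over features was 43.9 and 46.8 for WT library 1 against libraries 2 and 3, and 2.96 between those. It was 36.4 and 39.5 for Het library 1 against libraries 2 and 3, and 16.6 between those. Pairs of homozygous libraries gave 11.2 to 13.9, so WT libraries 2 and 3 were the most alike of all pairs within a genotype. The tests of RNA levels below, for single genes and for lists, were therefore also run without each library in turn.

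Set per length of gene body, Meioc was the most abundant of the 10 RNAs in every genotype. Levels are CPM (each count set against the scaled total of its library), here divided by the kilobases of the gene body, introns included. Meioc reached 22.0 ± 0.977 CPM per kb in homozygotes, 19.9 ± 2.13 in heterozygotes and 14.9 ± 0.726 in wild type (SD, n = 3 each). In wild type Ythdc2 (0.990 ± 0.0286) and Sohlh1 (0.820 ± 0.166) came next, and their libraries overlapped. Kit (0.566 ± 0.0991), Sohlh2 (0.465 ± 0.0266), Dmrt1 (0.313 ± 0.0407), Stra8 (0.282 ± 0.0135) and Sall4 (0.251 ± 0.0285) followed, of which neighbours overlapped only between Dmrt1 and Stra8. Zbtb16 (0.0601 ± 0.00194) and Gfra1 (0.0243 ± 0.00184), genes of the undifferentiated pool, were last on this scale. In that order Kit held rank 6 in homozygotes and rank 5 in heterozygotes, against rank 4 in wild type, while Stra8 held rank 5 in homozygotes and rank 6 in heterozygotes, against rank 7 in wild type. Kit and Stra8 libraries overlapped on this scale in heterozygotes and did not in homozygotes or wild type. The scale matters for genes with long introns: exons make up 2.63% of the Dmrt1 gene body and 24.9% of that of Meioc. Set per kilobase of exon, with intron reads still counted, Dmrt1 ranked 2 in wild type, at 11.9 CPM, after Meioc at 59.8 CPM. Exons make up 2.90% of the Zbtb16 body and 2.49% of the Gfra1 body. Per kilobase of exon, Sohlh1 ranked 7, Zbtb16 8, Gfra1 9 and Sall4 10 in wild type. As intron reads stay in the counts, that scale is not a level of exon RNA.

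Compared with wild type, homozygous testes held more RNA of the meiotic entry genes Stra8, Meioc and Ythdc2 and of the spermatogonial factor Sohlh2, and less of Kit. The other 5 genes did not pass the test. A gene passed at an adjusted p under 0.05 in the edgeR quasi-likelihood test with Benjamini-Hochberg adjustment over all 20782 features. In all, 4 of 10 genes were higher, where 9.68% of all features were, and 1 was lower, where 11.1% were. Taken in either direction, 50% of these genes passed, against a background of 20.8% of all features. Without WT library 2 or 3 or Homo library 2 or 3, 3 of the 10 passed, and the calls over all features, 4319 with all libraries, numbered 1805 at the fewest. Homozygous and wild-type libraries did not overlap for 5 of the 10, where 42.6% of all features showed that. The median log2 fold change of the 10 genes was 0.079, beside -0.015 over all features tested. Heterozygotes differed from wild type in the same comparison at Kit, Stra8, Meioc and Ythdc2: 3 genes were higher, where 11.1% of features were, and 1 was lower, where 12.9% were. This is 40% of the genes against a background of 23.9%, and 5 of the 10 had libraries that did not overlap, as was so for 42.1% of all features. Without WT library 1, 2 or 3 or Het library 3, 2 of the 10 passed, and the calls over all features, 4977 with all libraries, numbered 2432 at the fewest. The median of the 10 was 0.11, beside -0.0023 over all features. Both comparisons use the same 3 wild-type libraries, so they are not independent of each other. A difference of these libraries from the mutant ones in litter or batch, if there was one, cannot be told apart from genotype here.

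**Figure D1:**
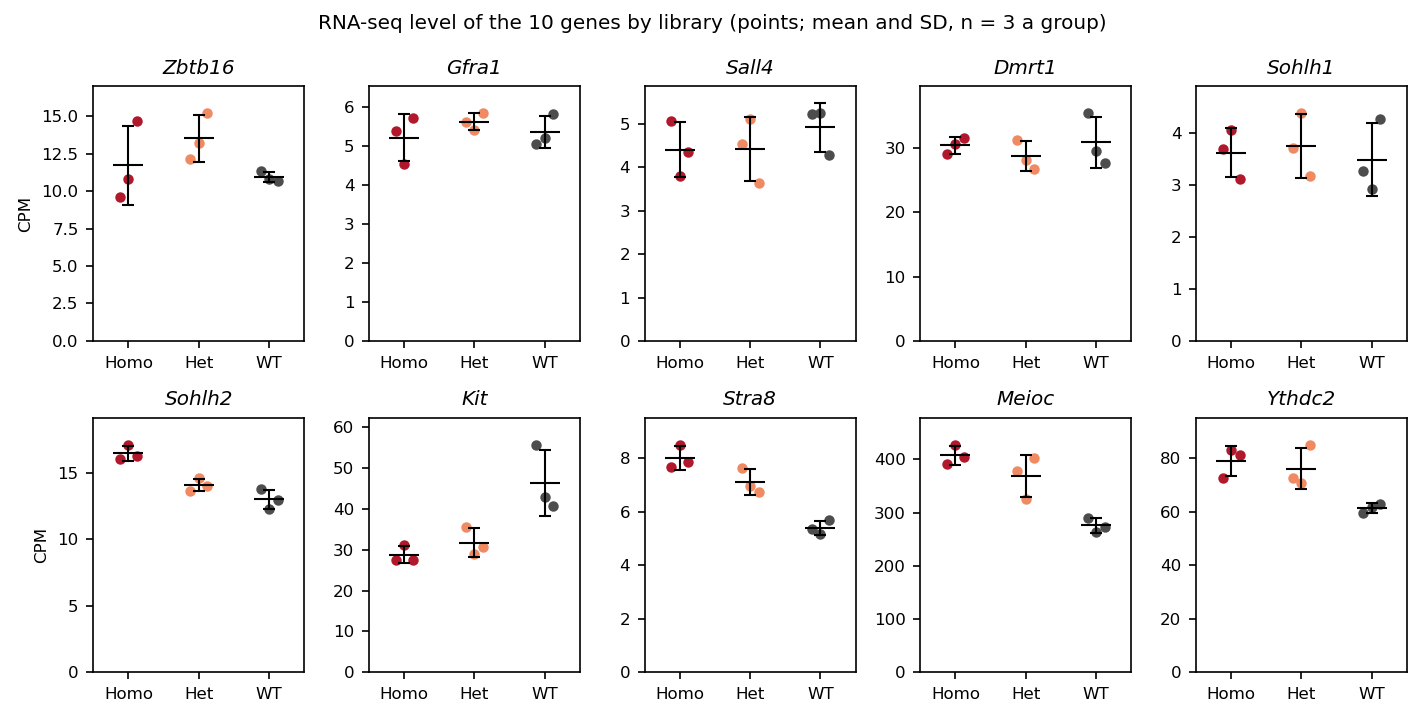
Level of each of the 10 genes in CPM (vertical axes, from 0) in the 9 RNA-seq libraries, as points, with the mean and SD of each genotype (Homo, Het, WT from left to right, n = 3 each). Homozygous libraries lie outside the wild-type range for Sohlh2, Kit, Stra8, Meioc and Ythdc2, and within or across it for the other 5 genes.

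The promoters of Stra8 and Kit are shown because both genes passed in both mutant genotypes and in opposite directions, and that of Sohlh1 because it stands out for its E-boxes while its RNA did not pass. E-boxes, spelled CANNTG, are the letters bound by SOHLH1, SOHLH2 and other helix-loop-helix proteins, and AGGTCA is the core element of retinoic acid receptors. RefSeq (GRCm38.p6) gives 300 bases each, from 250 before to 50 after a gene start, at chr6:34920698-34920997 (plus strand) for Stra8, chr5:75574737-75575036 (plus strand) for Kit and chr2:25847199-25847498 (minus strand) for Sohlh1. The Stra8 window lies wholly inside the gene body used for the counts, which starts further upstream than the RefSeq gene start. Capitals mark matches to the motifs searched on both strands.
Stra8: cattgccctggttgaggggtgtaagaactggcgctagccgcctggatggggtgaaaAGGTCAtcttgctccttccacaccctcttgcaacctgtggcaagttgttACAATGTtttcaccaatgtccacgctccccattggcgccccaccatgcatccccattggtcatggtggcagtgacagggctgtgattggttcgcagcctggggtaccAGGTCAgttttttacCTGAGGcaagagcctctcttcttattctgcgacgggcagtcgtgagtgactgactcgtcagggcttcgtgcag
Kit: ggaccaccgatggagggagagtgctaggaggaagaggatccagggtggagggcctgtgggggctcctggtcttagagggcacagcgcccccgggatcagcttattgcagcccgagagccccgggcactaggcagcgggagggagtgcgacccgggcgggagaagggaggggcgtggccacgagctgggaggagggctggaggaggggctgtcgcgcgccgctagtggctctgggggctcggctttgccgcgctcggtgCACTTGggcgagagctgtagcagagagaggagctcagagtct
Sohlh1: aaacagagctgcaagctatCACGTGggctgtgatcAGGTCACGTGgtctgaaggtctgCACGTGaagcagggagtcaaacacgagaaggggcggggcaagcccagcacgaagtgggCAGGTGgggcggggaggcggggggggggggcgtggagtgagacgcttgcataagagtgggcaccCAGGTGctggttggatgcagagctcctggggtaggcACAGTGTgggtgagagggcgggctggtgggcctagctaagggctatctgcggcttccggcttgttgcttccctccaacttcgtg
The Stra8 promoter holds AGGTCA at bases 57 to 62 and 213 to 218, counted from 1 at the 5′ end. The core of the DMRT1 motif (ACANTGT) is met by ACAATGT at 106 to 112. The core of the STRA8 and MEIOSIN motif (CCTCAG) is met on the other strand at 228 to 233. It holds no E-box. Of 32851 mouse promoters of this length, 1.81% hold AGGTCA at least 2 times, 16.3% at least once, 7.54% hold ACANTGT and 26.8% hold CCTCAG. The Kit promoter holds 1 E-box, CACTTG at 259 to 264, as 72.3% of promoters hold at least 1. The Sohlh1 promoter holds the E-box CACGTG 3 times, from bases 20, 40 and 59, and CAGGTG from 117 and 181. It also holds ACAGTGT at 217 to 223, and its AGGTCA at 36 to 41 overlaps the second CACGTG. Across promoters, CACGTG stands at least once in 7.15% and at least 3 times in 0.0883%, or 29 of them. Meioc holds none of these motifs in its window (chr11:102665335-102665634), and Sohlh2 holds an E-box and CCTCAG. Gfra1 holds 3 E-boxes in its window (chr19:58455349-58455648). The Meioc and Gfra1 windows, like that of Stra8, lie wholly inside the gene bodies used for the counts. The bases before those gene body starts were not searched. These are letters in a window, not measured binding.

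Stra8, the retinoic acid-induced gatekeeper of meiosis, lies at chr6:34920163-34939344 (plus strand, mm10), a gene body of 19182 bp without an overlapping gene on either strand. Its level was 7.65, 8.50 and 7.85 CPM in the 3 homozygous libraries, 7.64, 6.95 and 6.74 CPM in heterozygous ones, and 5.36, 5.17 and 5.69 CPM in wild-type ones. Every mutant library of either genotype lay above every wild-type library, and every homozygous library lay above every heterozygous one, the closest pair by a small margin. Homozygotes exceeded wild type by a log2 fold change of 0.57 (SE 0.12, edgeR adjusted p = 0.00908). This call held in all 17 alternatives, with an adjusted p of up to 0.0433. Heterozygotes exceeded wild type by 0.40 (SE 0.12, edgeR adjusted p = 0.0335), a call lost in 8 of 17 alternatives. Leaving out WT library 1, 2 or 3 gave an adjusted p of 0.0723, 0.101 and 0.0605, and leaving out Het library 1, 2 or 3 gave 0.0998, 0.0534 and 0.0545. It was 0.0718 with no filter and 0.0618 with only the groups compared in the fit.

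Meioc, whose protein keeps spermatocytes in an extended meiotic prophase, was also higher in both mutant genotypes. It lies at chr11:102663716-102682237 on the plus strand, with no overlapping gene. Its level was 392, 427 and 405 CPM in homozygotes, 378, 325 and 402 CPM in heterozygotes, and 290, 264 and 274 CPM in wild type. All 6 mutant libraries lay above all 3 wild-type ones, and the 2 mutant genotypes overlapped. The log2 fold change was 0.56 in homozygotes (SE 0.098, edgeR adjusted p = 0.00385) and 0.42 in heterozygotes (SE 0.098, edgeR adjusted p = 0.0122), each against wild type. Both calls held in all 17 alternatives.

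Ythdc2, the RNA helicase that binds MEIOC, lies on chromosome 18 itself, at chr18:44827746-44889724 on the plus strand. The piRNA locus starts 22.1 Mb beyond its end. Ythdc2 had 72.5, 82.9 and 81.0 CPM in homozygotes, 72.6, 70.9 and 85.0 CPM in heterozygotes, and 59.4, 61.6 and 63.0 CPM in wild type. Again all 6 mutant libraries lay above the wild-type ones. The log2 fold change was 0.36 in homozygotes (SE 0.095, edgeR adjusted p = 0.0206) and 0.31 in heterozygotes (SE 0.095, edgeR adjusted p = 0.0331). The homozygous call was lost without WT library 2 (adjusted p = 0.0604), WT library 3 (0.0504), Homo library 2 (0.0855) or Homo library 3 (0.0750). The heterozygous call was lost without WT library 1 (0.0735), WT library 2 (0.0816), WT library 3 (0.0677) or Het library 3 (0.122), and when a trend with gene length was removed (0.0717).

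Kit was the 1 gene of the 10 that was lower, and it was so in both mutant genotypes. It encodes the receptor by which differentiating spermatogonia sense KIT ligand, and lies at chr5:75574916-75656722 on the plus strand. Kit had 27.4, 31.2 and 27.6 CPM in homozygotes, 35.6, 29.0 and 30.6 CPM in heterozygotes, and 55.6, 42.8 and 40.6 CPM in wild type. The lowest wild-type library was above the highest mutant one, and WT library 1, which stood apart over all features, was the highest of the 9. Kit fell by 0.69 on the log2 scale in homozygotes (SE 0.13, edgeR adjusted p = 0.00499) and by 0.55 in heterozygotes (SE 0.13, edgeR adjusted p = 0.0116). Without WT library 1 the differences were -0.54 (edgeR adjusted p = 0.0137) and -0.39 (edgeR adjusted p = 0.0389), and both calls held in all 17 alternatives.

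Sohlh1 and Sohlh2 encode basic helix-loop-helix factors needed for spermatogonia to differentiate, and 1 of the pair, Sohlh2, passed in homozygotes. Sohlh2 (chr3:55182028-55209957, plus strand) had 16.0, 17.1 and 16.2 CPM in homozygotes, 13.64, 14.57 and 14.03 CPM in heterozygotes, and 13.8, 12.3 and 13.0 CPM in wild type. The homozygous libraries lay above all others, while heterozygous and wild-type libraries overlapped. Homozygotes exceeded wild type by a log2 fold change of 0.34 (SE 0.097, edgeR adjusted p = 0.0296), and heterozygotes differed from wild type by 0.11 (SE 0.097, edgeR adjusted p = 0.418). The homozygous call was lost with no filter (0.0720) and without WT library 2 (0.107), WT library 3 (0.0798), Homo library 2 (0.101) or Homo library 3 (0.0830). Sohlh1 (chr2:25842995-25847248, minus strand) averaged 3.62 ± 0.472 CPM in homozygotes, 3.75 ± 0.609 CPM in heterozygotes and 3.49 ± 0.705 CPM in wild type (SD, n = 3 each). Its 3 groups overlapped, with an edgeR adjusted p of 0.846 for homozygotes and 0.706 for heterozygotes, each against wild type.

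Of the 10 genes, the 3 of undifferentiated spermatogonia, Zbtb16, Sall4 and Gfra1, did not pass in any comparison. Zbtb16, which encodes PLZF and is needed to maintain the stem cell pool (chr9:48654297-48836222, minus strand), had 9.60, 10.8 and 14.7 CPM in homozygotes, 12.1, 13.2 and 15.2 CPM in heterozygotes, and 11.3, 10.8 and 10.7 CPM in wild type. The heterozygous libraries lay above all wild-type ones, but the difference of 0.30 (SE 0.15) had an edgeR adjusted p of 0.169. Homozygous libraries spread on both sides of the wild-type range, and the difference of 0.096 (SE 0.15) had an edgeR adjusted p of 0.692. Sall4, a zinc finger factor of the same cells (chr2:168748332-168767943, minus strand), averaged 4.41 ± 0.629 CPM in homozygotes, 4.43 ± 0.740 CPM in heterozygotes and 4.92 ± 0.559 CPM in wild type (SD, n = 3 each). Gfra1, the co-receptor for the niche factor GDNF (chr19:58235604-58455909, minus strand), averaged 5.22 ± 0.612 CPM in homozygotes, 5.63 ± 0.215 CPM in heterozygotes and 5.36 ± 0.406 CPM in wild type (SD, n = 3 each). Groups overlapped for both genes, and their log2 fold changes against wild type lay between -0.16 and 0.073, with standard errors of 0.14 to 0.17. Dmrt1, whose protein restrains Stra8 in mitotic spermatogonia and is also made by Sertoli cells (chr19:25505618-25604329, plus strand), averaged 30.4 ± 1.29 CPM in homozygotes, 28.8 ± 2.31 CPM in heterozygotes and 30.9 ± 4.01 CPM in wild type (SD, n = 3 each). Its log2 fold change was -0.024 in homozygotes (SE 0.11, edgeR adjusted p = 0.896) and -0.10 in heterozygotes (SE 0.11, edgeR adjusted p = 0.509). In whole testis, fewer cells of a type and less RNA per cell cannot be told apart for any of these genes.

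Homozygotes and heterozygotes, the pair that differs in the last intact copy of the locus, were not told apart by any of the 10 genes. The edgeR quasi-likelihood test called 0 of 10, where it called 0.0289% of all features, each gene at a Benjamini-Hochberg adjusted p of 0.9997. DESeq2 also called 0 of 10, where it called 0.0818% of all features, and 1 gene, Sohlh2, had an unadjusted p under 0.05 in the edgeR fit, where 3.07% of features did. Libraries did not overlap for 2 of the 10, Sohlh2 and Stra8, both higher in homozygotes, where 8.31% of all features did not overlap. The log2 fold changes were 0.23 (SE 0.096) for Sohlh2, 0.17 (SE 0.12) for Stra8, 0.15 (SE 0.097) for Meioc, 0.050 (SE 0.094) for Ythdc2 and -0.14 (SE 0.13) for Kit. Over all 10 genes they ran between -0.21 and 0.23, with 5 positive and 5 negative. A p above the threshold does not show that the 2 genotypes are alike, and these standard errors give the precision of each difference.

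**Figure D2:**
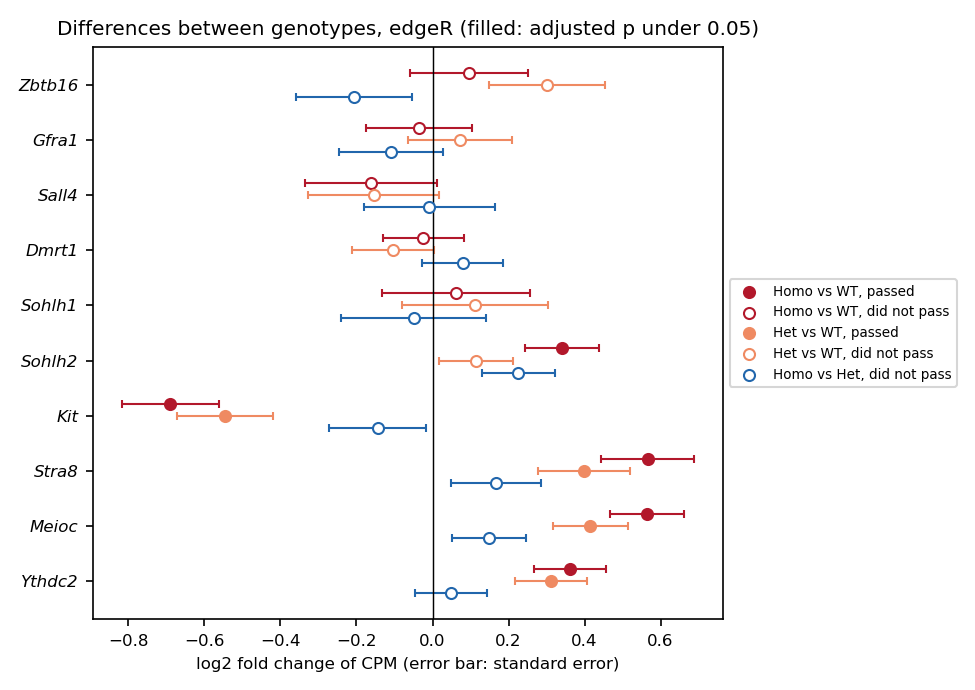
Log2 fold change of CPM (horizontal axis) with its standard error for each of the 10 genes (rows), in homozygotes against wild type, heterozygotes against wild type, and homozygotes against heterozygotes. Filled points passed the edgeR test; Kit lies left of 0 and Sohlh2, Stra8, Meioc and Ythdc2 right of it for homozygotes against wild type, and no point of homozygotes against heterozygotes is filled.

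Direct partners of the 10 genes were measured in the same libraries. Kitl, the ligand of KIT, made in the testis by Sertoli cells, went the other way from its receptor. It had 57.4, 71.7 and 71.9 CPM in homozygotes, 65.3, 61.3 and 70.9 CPM in heterozygotes, and 44.6, 41.6 and 46.1 CPM in wild type, with no overlap between mutant and wild-type libraries. The log2 fold change was 0.60 in homozygotes (SE 0.10, edgeR adjusted p = 0.00385) and 0.58 in heterozygotes (SE 0.10, edgeR adjusted p = 0.00456), and both calls held in all 17 alternatives. Rbm46, which encodes an RNA-binding partner of MEIOC and YTHDC2, averaged 160 ± 8.76 CPM in homozygotes, 163 ± 17.2 CPM in heterozygotes and 117 ± 5.60 CPM in wild type (SD, n = 3 each). It rose by 0.46 in homozygotes (edgeR adjusted p = 0.00821) and 0.48 in heterozygotes (edgeR adjusted p = 0.00632) on the log2 scale, in all 17 alternatives. Meiosin, the partner of STRA8, listed in the files as Gm4969, averaged 9.68 ± 1.30 CPM in homozygotes, 9.44 ± 1.67 CPM in heterozygotes and 9.32 ± 1.04 CPM in wild type (SD, n = 3 each), with an edgeR adjusted p of 0.841 for homozygotes against wild type. Gdnf (edgeR adjusted p = 0.303) and Ret (edgeR adjusted p = 0.199), the ligand and signalling receptor that work with GFRA1, did not pass in that comparison either.

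Wider lists set these genes in context, described by their counts alone. Over all features, 9.68% were higher and 11.1% lower in homozygotes than in wild type. In heterozygotes 11.1% were higher and 12.9% lower. The counts of each list here and below are to be read beside these shares, which several lists do not clearly exceed. Of 24 tested genes of meiotic entry and early meiosis, 13 were higher and 1 was lower in homozygotes than in wild type, with a median log2 fold change of 0.48. In heterozygotes 12 were higher and 3 lower than in wild type, with a median of 0.44. Meiob, needed for meiotic recombination, rose by 0.76 on the log2 scale in homozygotes (edgeR adjusted p = 0.00129) and by 0.79 in heterozygotes (0.00112). Sycp3, of the chromosome axis, rose by 0.81 in homozygotes (edgeR adjusted p = 0.00242) and by 0.69 in heterozygotes (0.00509). The meiotic cyclin gene Ccnb3 rose by 0.78 in homozygotes (edgeR adjusted p = 0.00131) and by 0.49 in heterozygotes (0.0103). Dmrtb1, a DM-domain gene of spermatogonia, fell by 0.46 in homozygotes (edgeR adjusted p = 0.0123) and by 0.57 in heterozygotes (0.00504). The Dmrtb1 call in homozygotes was lost without Homo library 2 (0.0622) or Homo library 3 (0.0628). The other lower ones in heterozygotes were Mei1, a meiotic gene (-0.48, edgeR adjusted p = 0.0333), and Rec8, of the meiotic cohesin (-0.42, edgeR adjusted p = 0.0379). Each was lost in 7 of 17 alternatives. Mei1 was lost without any 1 wild-type library or Het library 2 or 3, without scaling beyond library size and with only the groups compared, at an adjusted p of up to 0.112. Rec8 was lost without WT library 1 or 3, Het library 1 or 3 or Homo library 3, without scaling and with the length trend removed, at an adjusted p of up to 0.147. Over the libraries left out in turn, 9 to 15 genes of this list were higher in homozygotes and 10 to 14 in heterozygotes. The lower ones then numbered 0 to 2 in homozygotes (0 without Homo library 2 or 3, and 2 without Homo library 1) and 1 to 3 in heterozygotes (1 without WT library 1 or 3 or Het library 3).

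Of 25 tested genes of a list of other spermatogonial genes, which includes the Sertoli cell ligand gene Kitl, 3 were higher and 2 lower in homozygotes than in wild type, with a median log2 fold change of -0.083. Heterozygotes had 3 higher and 1 lower, with a median of -0.083, and the lower count was 0 without WT library 2 or 3 and 2 without Het library 1 or Homo library 1. Kitl is 1 of the higher genes in each mutant genotype, and the others in heterozygotes were Foxo1, a forkhead factor of spermatogonia (0.41, edgeR adjusted p = 0.0135, held in all 17 alternatives), and Taf4b (0.36, edgeR adjusted p = 0.0126, lost with the length trend removed at 0.0640). The lower one was Tspan8, a tetraspanin of spermatogonia rich in stem cells (-0.72, edgeR adjusted p = 0.0191), lost without WT library 2 or 3 or Het library 1 and with both strands summed (-0.15, edgeR adjusted p = 0.554). Besides Kitl, the higher ones in homozygotes were Itga6, an integrin of the stem cell surface (0.39, edgeR adjusted p = 0.0360), and Taf4b, a transcription cofactor (0.29, edgeR adjusted p = 0.0363). The lower ones were Tspan8 (-0.78, edgeR adjusted p = 0.0166) and the GDNF-responsive factor Etv5 (-0.37, edgeR adjusted p = 0.0327). Each of these 4 calls depended on single libraries. Itga6 was lost without WT library 2 (0.122), WT library 3 (0.105), Homo library 2 (0.135) or Homo library 3 (0.108), and with the length trend removed (0.0855). The Taf4b adjusted p lay between 0.0509 and 0.130 without any 1 of the 6 homozygous and wild-type libraries, and was 0.0674 with no filter and 0.0771 with the length trend removed. Tspan8 was lost without WT library 3 (0.0564), Homo library 1 (0.0503) or Homo library 3 (0.0684), and with both strands summed its log2 fold change was -0.25. Etv5 was lost without WT library 1 (0.0997), WT library 3 (0.0715) or Homo library 1 (0.0999), 2 (0.0504) or 3 (0.0678), and with only the groups compared in the fit (0.0506). Of the whole list, 1 gene was higher and 0 lower without WT library 3 or Homo library 3, 2 and 0 without Homo library 1, 1 and 2 without WT library 2, 1 and 1 without Homo library 2, and 2 and 1 without WT library 1. The median was 0.21 without WT library 1.

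Of 19 tested genes of the retinoic acid pathway, 0 were higher and 2 lower in homozygotes than in wild type, and 2 were higher and 2 lower in heterozygotes, with medians of -0.19 in homozygotes and -0.23 in heterozygotes. Of the genes with a positive difference in homozygotes, 3 had an unadjusted p under 0.05, and DESeq2 called 0. The higher ones in heterozygotes were Rarb, which encodes a retinoic acid receptor (0.88, edgeR adjusted p = 0.0168), and Aldh1a1, whose enzyme makes retinoic acid (0.44, edgeR adjusted p = 0.0255). Rarb was lost without WT library 3 (0.0563) or Het library 3 (0.0596), and Aldh1a1 without WT library 1 (0.0622), WT library 2 (0.0840) or Het library 1 (0.0671). Of the whole list, 1 gene was higher and 1 lower in heterozygotes without WT library 1, 1 and 2 without WT library 2 or 3 or Het library 3, and 1 and 4 without Het library 1. In homozygotes 1 was higher and 1 lower without Homo library 1, and 0 and 1 without WT library 1 or Homo library 2 or 3. Rxra, a nuclear receptor that pairs with retinoic acid receptors, fell by 0.61 on the log2 scale in homozygotes (edgeR adjusted p = 0.00760) and by 0.58 in heterozygotes (0.00812), in all 17 alternatives each. Cyp26b1, which breaks retinoic acid down, fell by 0.46 in homozygotes (edgeR adjusted p = 0.0399), a call lost without WT library 1 (0.113), WT library 3 (0.0983) or Homo library 1 (0.0948), 2 (0.0614) or 3 (0.137), and without scaling beyond library size (0.0742).

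Among the markers of other testis cells, the lists of Leydig cells and elongating spermatids held most of the lower calls. Whether these and the differences of the 10 genes are linked was not tested. Of 10 tested Leydig cell markers 8 were lower in homozygotes and 8 in heterozygotes than in wild type, with medians of -1.02 and -0.85. Their summed level was 596 to 785 CPM in homozygotes, 637 to 823 CPM in heterozygotes and 1357 to 1493 CPM in wild type. Insl3, a defining marker of these cells, was at 0 in all 9 libraries, wild type included, so it shows no genotype difference. Whether the way of counting left out its reads was not tested. Hsd17b3, which makes testosterone, averaged 7.84 ± 0.0604 CPM in homozygotes, 10.4 ± 1.03 CPM in heterozygotes and 25.5 ± 2.75 CPM in wild type (SD, n = 3 each). Leydig cells also express Kit, and the part of these or other cells in the Kit difference was not tested. Of 12 elongating spermatid markers 6 were lower in homozygotes and 7 in heterozygotes, with medians of -0.80 and -0.85, and summed levels of 8392 to 11332 CPM in homozygotes, 5005 to 12712 CPM in heterozygotes and 15283 to 15921 CPM in wild type. Het library 1 held the lowest of these sums, and without it 11 of the 12 were lower in homozygotes, while 4 were without WT library 1 or any 1 homozygous library. In heterozygotes the median was -0.53 without Het library 1 and -1.08 without Het library 2, and 5 to 9 were lower over the libraries left out. Since CPM are shares of a library, their part in the higher shares of other genes was not tested.

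Fewer genes passed in the remaining marker lists. Of 11 Sertoli cell markers 0 passed in homozygotes against wild type by edgeR, with a median log2 fold change of 0.14. DESeq2 also called 0, and 4 had an unadjusted p under 0.05 (3 with a positive and 1 with a negative difference). By edgeR 2 were higher in heterozygotes (Fshr and Wt1). The summed Sertoli level was 836 to 964 CPM in homozygotes, 781 to 884 CPM in heterozygotes and 914 to 950 CPM in wild type. Pachytene spermatocyte markers had 1 of 12 higher (Mybl1) in homozygotes and 2 lower (Ccna1 and Aurka) in heterozygotes. Round spermatid markers had 1 of 12 higher (Acrv1) and 1 lower (Spert) in each mutant genotype. Of 7 peritubular myoid markers 1, Des, was lower in homozygotes and 0 passed in heterozygotes by edgeR or DESeq2, with 1 at an unadjusted p under 0.05. Of 7 macrophage markers 1, Lyz2, was higher in each. Of these 12 calls, those of Spert and Lyz2 in heterozygotes held in all 17 alternatives, and the other 10 were lost in at least 1, at an adjusted p of up to 0.0507 (Des) to 0.151 (Mybl1). In homozygotes against heterozygotes 0 of the 139 tested genes of all lists passed by edgeR or by DESeq2, and 4 had an unadjusted p under 0.05.

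**Figure D3:**
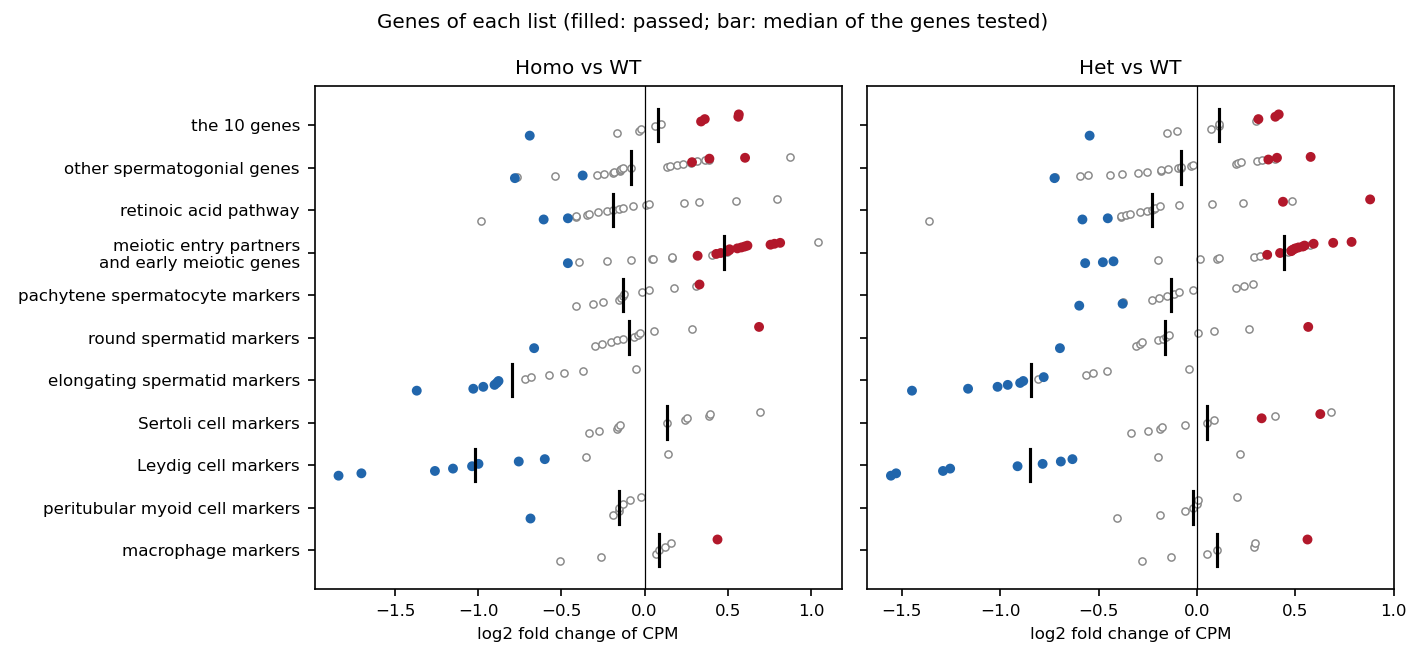
Log2 fold change of CPM against wild type (horizontal axes; homozygotes in the left panel, heterozygotes in the right) of the tested genes of each list (rows), with filled points for genes that passed the edgeR test, red where higher and blue where lower, and a bar at the median of the list. The early meiotic list lies mostly right of 0, with medians of 0.48 and 0.44, and the Leydig and elongating spermatid lists lie left of it.

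RNA of the opposite strand within the gene bodies is described for Gfra1 and Meioc, with the other 8 genes beside them. Gfra1 had 1439 counts on the opposite strand over all 9 libraries, beside 1442 on its own, a share of 99.8%, where all features together had 8.81 to 10.7% per library. The share was 101% in homozygotes, 97.8% in heterozygotes and 101% in wild type. The 1 annotated gene on that strand, Gm16277, overlaps 0.202% of the Gfra1 body. How much of Gfra1's own-strand count, used for its level above, comes from Gfra1 mRNA was not tested. For the other genes the share was 10.9% for Sohlh1 and between 0.384% and 2.63% for the rest.

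Meioc went in opposite directions on its 2 strands. Its opposite strand had 144, 116 and 124 counts in homozygotes, 224, 151 and 107 in heterozygotes, and 280, 196 and 179 in wild type. Relative to the scaled opposite-strand libraries this was 49.8 ± 3.42 CPM in homozygotes, 47.5 ± 8.51 CPM in heterozygotes and 79.4 ± 8.19 CPM in wild type (SD, n = 3 each), and all 6 mutant libraries lay below the wild-type ones. As a share of Meioc's own strand it was 1.14% in homozygotes, 1.27% in heterozygotes and 2.90% in wild type. In an edgeR fit of the opposite strand, chosen after these counts were seen, it fell by 0.67 on the log2 scale in homozygotes (SE 0.17, edgeR adjusted p = 0.0237) and by 0.74 in heterozygotes (SE 0.17, edgeR adjusted p = 0.0144), each against wild type. In that fit 5.51% of 12303 features were lower in homozygotes and 6.05% in heterozygotes. The homozygous call was lost without WT library 1 (0.0809), WT library 3 (0.0616), Homo library 2 (0.105) or Homo library 3 (0.0813), and the heterozygous one without WT library 1 (0.0585) or Het library 3 (0.0675). Homozygotes and heterozygotes differed by 0.065 (SE 0.18, edgeR adjusted p = 0.999), where 0% of features passed. The counts give no gene on this strand at Meioc, and reads of a transcript and reads on the wrong strand cannot be told apart for it.

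**Figure D4:**
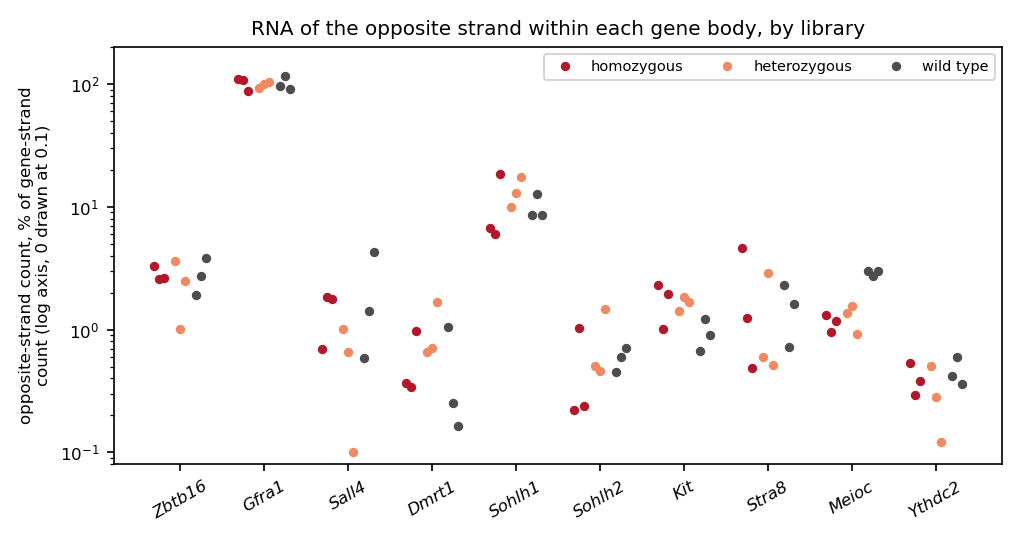
Opposite-strand counts within each gene body as a percent of the counts on the gene's own strand (vertical log axis, counts of 0 drawn at 0.1), in each homozygous, heterozygous and wild-type library (points, left to right within a gene). Gfra1 lies near 100% in every library, and the 3 wild-type libraries of Meioc lie above its 6 mutant ones.

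Genes whose log2 CPM followed the called genes most closely over the 9 libraries were searched among 17447 genes with a mean of at least 1 CPM, as a description, since all share the same libraries and genotypes. Meioc was closest to Plaa (Pearson r = 0.994), Prpf4b (0.990) and Esco1 (0.990), and Ythdc2 to Klhl15 (0.993), Kdm7a (0.992) and Cse1l (0.991). Stra8 was closest to Snx25 (0.984), Fam90a1b (0.981) and Lrrc42 (0.980), and Sohlh2 to Rpl6l (0.975), Poglut1 (0.961) and Mon2 (0.951). Kit was closest to Alpl (0.979), Gramd1b (0.976) and Gm11518 (0.972). None of these was another of the 10 genes.

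Small RNA from the exons of the 10 genes was scarce. Library totals over annotated genes lay between 939641 and 1861402 counts, after periodate oxidation, which spares RNAs whose 3′ end is methylated, piRNAs among them. Meioc had the most, with 20, 13 and 15 counts in homozygotes and 22, 12 and 10 in heterozygotes. It was the 1 gene of the 10 to pass the filter, and its log2 fold change of 0.21 (SE 0.29) had an edgeR adjusted p of 0.849, where 0.0279% of 3581 features passed. Zbtb16 had 64 counts over the 6 libraries, Ythdc2 38 and Sall4 33, and the other 6 genes had 4 to 13 each, too few for a comparison. Zbtb16 had 10, 9 and 6 counts in homozygotes, and 5, 17 and 17 in heterozygotes. The lowest and the highest of these were both heterozygous. Het small RNA library 1 stood apart: its chi-square over features, per degree of freedom, was 16.8 against Het library 2 and 18.1 against Het library 3, beside 1.76 between those.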

How the data were processed

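Testis RNA-seq (9 libraries) and small RNA sequencing (6 libraries) were grouped by the genotype labels. The deposited values are raw counts with no normalization by the authors. Per the file headers, featureCounts 1.6.2 assigned proper pairs to entire gene bodies with their introns, each strand in its own file, over 49585 genes and 466 piRNA precursors. Gene body counting lets unspliced RNA enter each value. Per the file headers, small RNA counts cover exons on the sense strand. The submitters' processing notes name the mm10 and mm9 builds without roles; coordinates here are those of the files, which match GENCODE for mm10. Totals lay between 21684791 and 41513634 for RNA-seq, and depth limits genes of a few counts most. Symbols were found for 49326 gene IDs.

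The kit strand was used. Counts were filtered with filterByExpr by group and scaled by TMM, and all 9 libraries entered 1 edgeR 4.0.16 quasi-likelihood fit (limma 3.58.1, R 4.3.3, data.table package version 1.17.8) with group means. The threshold was an adjusted p of 0.05 (Benjamini-Hochberg). Small RNA and the opposite strand had fits of their own. The fit was also run on simulated data. These held no library that stood apart from its group, so that feature of the real data was not covered. Standard errors were derived from each log2 fold change and its F statistic. Alternatives were DESeq2 1.42.0, RLE scaling, no scaling beyond library size, no filter, a filter at a mean CPM of 1, both strands summed, a gene length trend removed (lowess span 0.5), only the groups compared, each library left out and, for small RNA, a replicate block. RNA-seq replicate numbers follow sample order and pair nothing.

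The 10 genes, the lists and the motifs were chosen with earlier results of these data known. From each list up to 3 genes in each direction with the lowest adjusted p were eligible to be named, with Kitl, Gdnf, Ret, Meiosin and Rbm46 by name, and the 3 genes most like each called gene. Iho1 and Meiosin were matched through synonyms, and Spata22 and 1 Sertoli cell marker are not reported here. Promoters were found in the RefSeq promoter set for 6 of the 10 genes. The opposite-strand fit was chosen after the counts were seen.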

Additional observations from a re-analysis of the deposited data

How the results depend on the processing

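Of the 510 alternative values of the 10 genes over 3 comparisons, 465 kept their direction and side of the threshold, 22 lost a call with the same direction, 0 gained one by any tool run, and 23 changed sign. All sign changes were in genes that did not pass in the comparison concerned. The calls of Kit, Meioc and, in homozygotes, Stra8 held throughout. With each library left out in turn, 3 to 5 of the genes passed in homozygotes against wild type (3 without WT library 2 or 3 or Homo library 2 or 3), and 2 to 4 in heterozygotes against wild type (2 without WT library 1, 2 or 3 or Het library 3). Over all features the calls then numbered 1805 to 4737, 2432 to 4720 and, for homozygotes against heterozygotes, 4 to 18, beside 4319, 4977 and 6. For the last pair DESeq2 called 17 and no filter called 13. Without scaling, 56.9% of calls were higher in homozygotes than in wild type and 66.8% in heterozygotes, beside 46.6% and 46.3%, and the median over all features in heterozygotes lay at 0.10, beside -0.0023.

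Log2 fold changes against wild type without scaling were 0.012 for Gfra1 and 0.033 for Dmrt1 in homozygotes and 0.0061 for Dmrt1 in heterozygotes, and between the mutants -9.6e-05 for Ythdc2 and -0.0059 for the opposite strand of Meioc. With the length trend removed they were -0.0085 for Zbtb16 in homozygotes, -0.14 for Gfra1 in heterozygotes and 0.0068 for Gfra1 between the mutants, and with both strands summed 0.0066 for Sall4 between the mutants. Over the libraries left out, homozygotes against wild type ran between -0.098 and 0.088 for Dmrt1, -0.052 and 0.22 for Sohlh1, -0.11 and 0.054 for Gfra1, and -0.10 and 0.22 for Zbtb16. Heterozygotes against wild type ran between -0.18 and 0.013 for Dmrt1 and -0.010 and 0.27 for Sohlh1. Homozygotes against heterozygotes ran between -0.13 and 0.10 for Sall4, -0.15 and 0.072 for Sohlh1, and on the opposite strand -0.076 and 0.055 for Gfra1 and -0.072 and 0.15 for Meioc. The cause was not tested.

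In small RNA the replicate block gave 0 of the 10 genes and 0 features called by edgeR, as the main fit gave 0 of the 10 and 1 feature. Same-numbered libraries did not deviate together (r = -0.150, 0.00195 and -0.0817), so the numbers were not taken as pairs. With no filter, 0 of the 10 genes and 43 of 18574 features were called. Leaving out each small RNA library gave 0 to 1 of the 10 genes and 0 to 1 features, except that without Het library 1, which stood apart, 617 of 3835 features were called. The 1 gene, Zbtb16, has its lowest count in that library and is not reported as a difference.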
